A study of Mus musculus with 24 samples.

Results

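The mRNA of whole lenses from C57BL/6 mice at postnatal day 9 (P9) was compared with that at postnatal day 6 (P6). The comparison takes 4 of the 24 libraries of the series, those made from mRNA at these ages, and covers every gene listed in their tables, 30705 in all. The P9 group and the P6 group are each 2 separate pools, A and B, of lenses from 8 to 9 pups. The labels name no treatment and no modified allele, and the groups differ by age. Lenses were removed with forceps under a microscope, total RNA was taken up in Trizol, and TruSeq RNA v2 libraries, a kit that does not mark strand, were sequenced on a HiSeq2000. Each library is therefore an average over the epithelium and the fibers of many lenses, together with whatever adhered to them. Pools of E18, P0 and P3 lenses, 2 of each, entered the fit to estimate the spread between pools.

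The lens is a closed epithelial vesicle that grows throughout life. A single layer of epithelial cells covers its front. These cells divide mostly in a band near the equator, leave the cell cycle there and elongate into fiber cells. Fiber cells fill with crystallins, join through connexins and the water channel aquaporin 0, and later degrade their nuclei and organelles. In the mouse the days compared here fall before the eyelids open, while the fetal capillary net around the lens regresses and, in the neighbouring retina, rods are building their outer segments.

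Values are in RPKM, reads scaled to transcript length and to library size. The smallest steps between values gave an estimated depth of 27500000 and 20350000 assigned reads in P9 pools A and B, and of 25600000 and 26400000 in P6 pools A and B. For a 2 kb transcript, 1 RPKM then corresponds to 40.7 reads in P9 pool B and to 55 in P9 pool A. The 16 crystallin genes took 61.3% and 60.7% of the summed RPKM in the P9 pools, against 58.5% and 59.7% in the P6 pools. The lens transcription factors Pax6, Prox1, Maf and Foxe3 were present in all 4 libraries, so the labelled tissue was found. The median difference between the A and B pools was 0.14 on the log2(RPKM + 1) scale at P9 and 0.13 at P6. The median size of the P9 minus P6 change was 0.12; the first 2 values are differences between single pools and the last is between means of 2 pools, so they are not on a par.

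Of 14202 genes that reached 1 RPKM in at least 2 of the 10 libraries fitted, 50 (0.352%) differed between P9 and P6 at an adjusted p below 0.05 (limma on log2(RPKM + 1), Benjamini-Hochberg over all genes tested). Of these, 27 (0.19%) rose at P9 and 23 (0.162%) fell. At an unadjusted p below 0.05, 657 genes were higher at P9 (4.63%) and 907 lower (6.39%). Both P9 pools lay above both P6 pools for 2121 genes (14.9%) and below them for 3676 (25.9%), and in all 50 called genes the pools of the 2 ages did not overlap. The order of pools comes from the same values as the calls, so here and below it describes a called gene and is no separate support. After median-ratio rescaling of the libraries 53 genes were called higher and 23 lower, and after quantile normalization 56 and 29. The count rests on single libraries: it was 117 higher and 38 lower without P9 pool A, 9 and 5 without P9 pool B, 22 and 9 without P6 pool A, and 0 and 2 without P6 pool B. No called gene that was tested changed its direction under any of these settings. Of the called genes, 40 carry a gene symbol, 25 of them higher and 15 lower, and 37 are described here, 22 higher and 15 lower. A further 10 are entries listed by a sequence accession only, 2 higher and 8 lower, and are counted but not described.

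**Figure D1:**
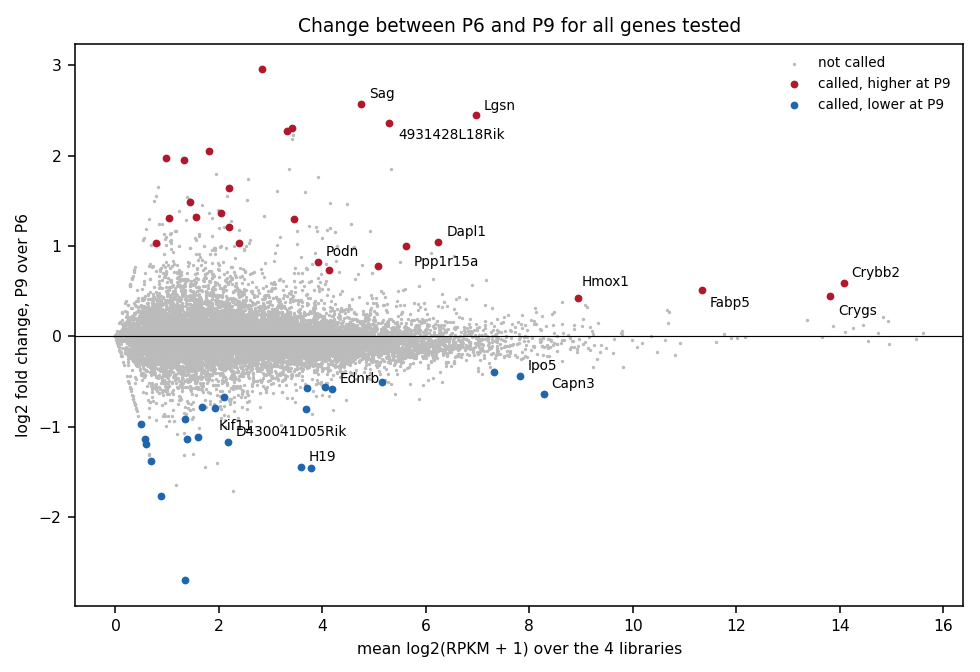
Fitted change between P9 and P6 (log2 of RPKM + 1, vertical axis) against the mean level (log2 of RPKM + 1, horizontal axis) for the 14202 genes tested, with genes called higher at P9, genes called lower at P9 and genes not called in separate colours. Most genes lie near 0, the median being -0.03, and the called genes at the highest levels, such as Crybb2 and Crygs, have small changes.

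The risers of the lens proper were led by Lgsn, which encodes lengsin, a lens fiber protein related to glutamine synthetases. Lgsn (chr1:31176401-31204725, plus strand, GENCODE on GRCm38) had 380.1 and 220.3 RPKM in the P9 pools, against 54.7 and 50.1 RPKM in the P6 pools. Both P9 pools stood far above both P6 pools and P9 pool A stood above P9 pool B. The mean was 300.2 ± 113 RPKM at P9 and 52.4 ± 3.22 RPKM at P6 (SD, n = 2 each). This is a ratio of 5.73 and a log2 change of 2.44 ± 0.22 (SE; limma adjusted p = 0.00444). The P3 pools were lower still, at 17.7 and 21.6 RPKM. The gene 4931428L18Rik (chr1:30997842-31222684, minus strand) spans the same stretch on the other strand. It rose with Lgsn and had 113 and 66.8 RPKM at P9, against 16.01 and 16.3 RPKM at P6 (log2 change 2.36 ± 0.22 SE, adjusted p = 0.00504). Since the kit does not mark strand, reads of the 2 genes cannot be told apart where their exons overlap.

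Among the crystallins, the refractive structural proteins, 2 of 16 rose (0.19% over all genes) and none fell at the adjusted threshold, with 6 higher (4.63% over all genes) and 0 lower at an unadjusted p below 0.05 and a median log2 change of 0.07 (all genes -0.03). Crybb2 (chr5:113058258-113070117, minus strand), a beta-crystallin that accumulates after birth, had 21881 and 20478 RPKM in the P9 pools, against 14094 and 13942 RPKM in the P6 pools. The pools of each age were close to each other and the ages did not overlap (ratio 1.51, log2 change 0.59 ± 0.05 SE, adjusted p = 0.00444). Crygs (chr16:22805203-22811577, minus strand), the gamma-crystallin of the later fiber cells, had 17795 and 15944 RPKM in the P9 pools, against 12734 and 11997 RPKM in the P6 pools (log2 change 0.45 ± 0.07 SE, adjusted p = 0.036), again without overlap. Its adjusted p was 0.0713 after median-ratio rescaling. The other 14 were not called. The alpha-crystallin Cryaa, a small heat shock protein, had 44991 and 44816 RPKM at P9, against 44731 and 47027 RPKM at P6, with overlapping pools. Cryab, its partner, had 11325 and 11042 RPKM at P9, against 9838 and 9906 RPKM at P6 (log2 change 0.18 ± 0.05 SE, adjusted p = 0.231). In Cryab the P9 pools lay above the P6 pools by less than the threshold asks. Cryba1, the most abundant transcript of the lens here, had 51799 and 49098 RPKM at P9, against 49686 and 48639 RPKM at P6. Crygb had 34742 and 31947 RPKM at P9, against 29819.6 and 29336 RPKM at P6 (log2 change 0.17). Crygc had 32107 and 30521 RPKM at P9, against 26375 and 27398 RPKM at P6 (log2 change 0.22). Cryga to Crygf are near-identical copies that can share reads, so single values of these gamma-crystallins are uncertain.

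Of 12 further fiber-enriched genes, Lgsn and Fabp5 rose (0.19% over all genes) and none fell, with 7 higher (4.63% over all genes) and 0 lower at an unadjusted p below 0.05 (median 0.26). Fabp5 (chr3:10012548-10016607, plus strand), a fatty acid-binding protein, had 3224 and 2934 RPKM in the P9 pools, against 2196 and 2106 RPKM in the P6 pools. Its P9 pools lay apart from its P6 pools (log2 change 0.52 ± 0.06 SE, adjusted p = 0.00798). Other genes of this list were not called. Dnase2b, the nuclease that degrades the DNA of fiber nuclei, had 101 and 83.5 RPKM at P9, against 67.9 and 72.3 RPKM at P6 (log2 change 0.38 ± 0.10 SE, adjusted p = 0.158). Lctl, a klotho-family protein of the lens, had 654 and 568 RPKM at P9, against 462 and 497 RPKM at P6 (log2 change 0.35 ± 0.09 SE, adjusted p = 0.152). Both P9 pools of each were above both P6 pools, which held for 7 of the 12 genes and for 14.9% of all genes. The 16 measured fiber membrane and cytoskeleton genes gave no call by limma. At an unadjusted p below 0.05, 0 were higher and 3 lower (6.39% lower over all genes), with a median of -0.10. Aquaporin 0, Mip, had 3870.3 and 3677 RPKM at P9, against 3757 and 3854 RPKM at P6. Lim2, a junctional membrane protein, had 4673 and 4536 RPKM at P9, against 4406 and 4849 RPKM at P6, with overlapping pools in both. Without P6 pool B the adjusted p was 0.0752 for Lgsn, 0.0752 for Crybb2, 0.124 for Fabp5 and 0.293 for Crygs. Lgsn, Crybb2 and Fabp5 kept their calls without each of the other 3 libraries, and Crygs had 0.0735, 0.0654 and 0.0806 without P9 pool A, P9 pool B and P6 pool A.

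**Figure D2:**
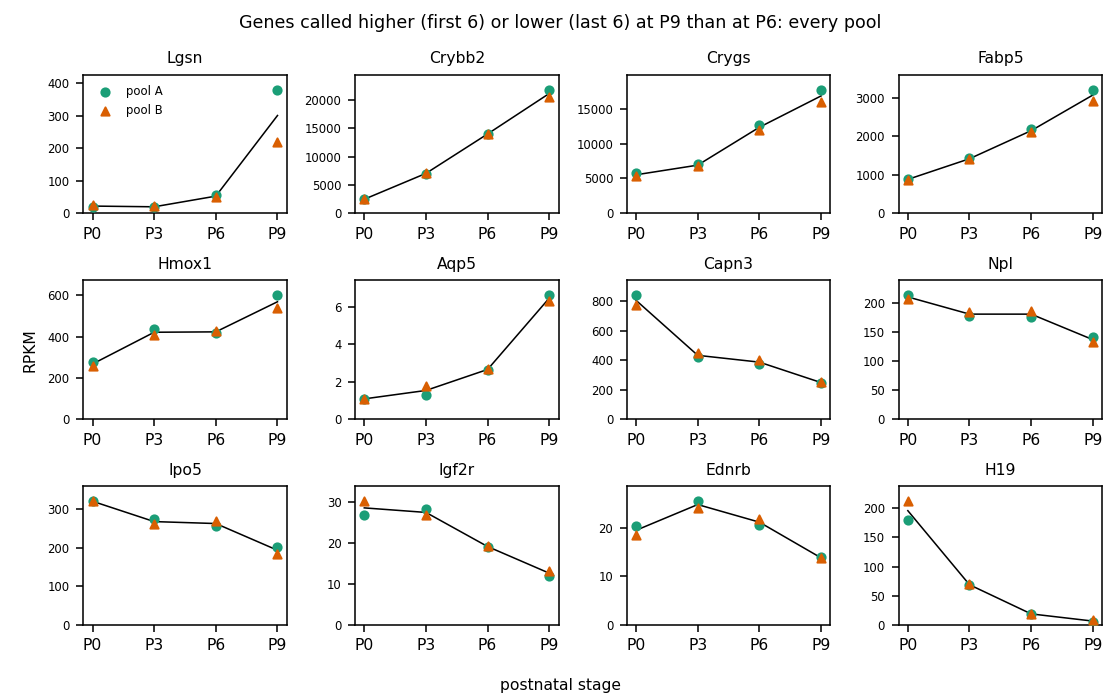
RPKM (vertical axes, each from 0) by pool at P0, P3, P6 and P9 for 6 genes higher at P9 (Lgsn, Crybb2, Crygs, Fabp5, Hmox1, Aqp5) and 6 lower at P9 (Capn3, Npl, Ipo5, Igf2r, Ednrb, H19). Points are pools and lines join the means of the pools; in each gene both P9 points lie on one side of both P6 points, and H19 is lower at each later age shown.

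The bases before the RefSeq start sites of 4 risers are shown, a choice among the called lens and rod genes with a match to a motif of lens or photoreceptor factors; Pde6b, with TGCTGA at 8 bases upstream, is another. The letters are 250 bases upstream of the RefSeq start, 5′ to 3′ on the gene's strand, from RefSeq on GRCm38.p6. Capitals mark matches, on either strand, to TAATCC (the motif of the photoreceptor factors Crx and Otx2), to TGCTGA (the core half-site of Maf factors) and to GAANNTTC or TTCNNGAA (a core of heat shock elements).
Lgsn (chr1:31176185-31176434, plus strand): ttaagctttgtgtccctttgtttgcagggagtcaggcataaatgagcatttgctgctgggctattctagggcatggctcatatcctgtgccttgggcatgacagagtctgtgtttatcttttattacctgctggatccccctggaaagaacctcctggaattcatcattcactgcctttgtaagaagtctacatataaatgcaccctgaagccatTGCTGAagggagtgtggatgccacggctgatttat
Crygs (chr16:22811411-22811660, minus strand): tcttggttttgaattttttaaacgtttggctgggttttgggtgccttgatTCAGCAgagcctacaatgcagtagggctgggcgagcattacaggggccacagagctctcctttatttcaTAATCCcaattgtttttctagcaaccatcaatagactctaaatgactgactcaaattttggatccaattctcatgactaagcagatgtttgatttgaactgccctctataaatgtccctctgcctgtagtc
Sag (chr1:87803430-87803679, plus strand): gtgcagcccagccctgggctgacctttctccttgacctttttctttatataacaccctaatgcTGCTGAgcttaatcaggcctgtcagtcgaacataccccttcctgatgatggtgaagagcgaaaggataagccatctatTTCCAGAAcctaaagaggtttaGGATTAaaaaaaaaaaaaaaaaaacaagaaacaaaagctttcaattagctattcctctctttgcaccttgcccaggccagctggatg
Gngt1 (chr6:3993758-3994007, plus strand): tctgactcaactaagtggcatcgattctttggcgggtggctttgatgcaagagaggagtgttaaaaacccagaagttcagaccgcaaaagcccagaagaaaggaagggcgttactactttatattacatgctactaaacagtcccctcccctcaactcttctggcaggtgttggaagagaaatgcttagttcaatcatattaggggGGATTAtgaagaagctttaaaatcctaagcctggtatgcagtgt
Lgsn holds TGCTGA with its first base 35 bases upstream. Crygs holds TAATCC at 131 and the reverse complement of TGCTGA at 200 bases upstream. Sag holds the reverse complement of TAATCC at 87, a TTCNNGAA match at 109 and TGCTGA at 187, and Gngt1 holds the reverse complement of TAATCC at 44. RefSeq and GENCODE place some starts differently: the GENCODE spans of these genes take in 167 of the 250 bases of the Crygs window, 34 of the Lgsn window, 0 of the Sag window and, for Gngt1 (GENCODE start at 3993792 on chr6), 216. The TAATCC matches of Crygs and Gngt1 therefore lie inside the annotated gene. The TGCTGA match of Lgsn straddles the GENCODE start (31176401 on chr1) and lies mostly inside the gene. In the same window, 6.25% of all 32851 RefSeq promoters hold TAATCC, 16.1% hold TGCTGA and 12.8% hold GAANNTTC or TTCNNGAA. Of the 40 called genes with a symbol, 28 were in the table, with 33 promoters. Among the 20 promoters of genes higher at P9, 5 hold TAATCC, 9 hold TGCTGA and 2 hold the heat shock core, and among the 13 of genes lower at P9 the numbers are 2, 4 and 2. These are matches of letters and no evidence of binding.

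Aqp5, a water channel of the lens, rose at P9. It had 6.64 and 6.34 RPKM in the P9 pools, against 2.62 and 2.69 RPKM in the P6 pools, with close pools at each age (log2 change 1.03 ± 0.14 SE, adjusted p = 0.0168). It kept the call without P9 pool A and had an adjusted p of 0.105, 0.0737 and 0.154 without P9 pool B, P6 pool A and P6 pool B. Of 14 ion, water and solute transport genes 2 rose (0.19% over all genes) and 0 fell (median 0.09). Slc2a1, the glucose transporter GLUT1, was not called and had 173 and 183 RPKM at P9, against 202 and 194 RPKM at P6.

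Matrix risers outside any list were Podn, Fmod and Ltbp2. Podn (podocan) had 19.5 and 18.7 RPKM at P9, against 10.5 and 10.3 RPKM at P6 (log2 change 0.82 ± 0.11 SE, adjusted p = 0.0191). Fmod (fibromodulin) had 6.41 and 5.45 RPKM at P9, against 2.35 and 1.68 RPKM at P6 (log2 change 1.21 ± 0.16 SE, adjusted p = 0.0159). Its P3 pools, at 3.27 and 4.13 RPKM, stood above its P6 pools. Ltbp2, a microfibril protein of the ciliary zonule that holds the lens, had 3.73 and 3.57 RPKM at P9, against 1.11 and 0.641 RPKM at P6 (log2 change 1.32 ± 0.15 SE, adjusted p = 0.00919). Podocan and fibromodulin are small leucine-rich proteoglycans that bind collagen. In all 3 both P9 pools stood above both P6 pools, at low to moderate levels. All 3 kept the call without P9 pool A, none without P9 pool B, Fmod and Ltbp2 without P6 pool A and none without P6 pool B. Of 18 capsule and basement membrane genes none was called by limma. At an unadjusted p below 0.05, 3 were higher (4.63% over all genes) and 0 lower (6.39% over all genes), with a median of -0.02. The collagen IV chain Col4a3 had 59.9 and 53.99 RPKM at P9, against 40.6 and 37.8 RPKM at P6 (log2 change 0.53 ± 0.10 SE, adjusted p = 0.066). Its partner Col4a4 had 49.2 and 45.7 RPKM at P9, against 37.5 and 37.3 RPKM at P6 (log2 change 0.34 ± 0.09 SE, adjusted p = 0.174). The more abundant Col4a1 had 685 and 655 RPKM at P9, against 609.8 and 600.3 RPKM at P6, and in these 3 chains both P9 pools lay above both P6 pools. Col4a6 had 55.5 and 52.6 RPKM at P9, against 57.4 and 60.97 RPKM at P6, both P9 pools being below both P6 pools. Col4a5 had 96.7 and 84.98 RPKM at P9, against 96.1 and 94.6 RPKM at P6, with overlapping pools.

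Other risers were Hmox1, Ppp1r15a, S100a10, Gltp and Dapl1. Hmox1, the inducible heme oxygenase, is abundant in these lenses and had 601 and 538 RPKM in the P9 pools, against 418 and 428 RPKM in the P6 pools (log2 change 0.43 ± 0.07 SE, adjusted p = 0.0468). Its pools did not overlap, and after median-ratio rescaling its adjusted p was 0.0824. It was the called member among 24 antioxidant genes (0.19% called higher over all genes). Of these, 3 were higher (4.63% over all genes) and 3 lower (6.39% over all genes) at an unadjusted p below 0.05. Ppp1r15a (GADD34), which brings protein phosphatase 1 to eIF2 alpha and so ends the integrated stress response, had 82.9 and 55.9 RPKM in the P9 pools, against 36.04 and 31.3 RPKM in the P6 pools (log2 change 1.00 ± 0.16 SE, adjusted p = 0.0447). The 11 tested genes of the integrated stress response list gave no call (limma; 2 higher and 0 lower at an unadjusted p below 0.05): Atf4 had 111 and 95.9 RPKM at P9, against 99.7 and 99.5 RPKM at P6. Ddit3 had 11.3 and 9.91 RPKM at P9, against 9.31 and 8.83 RPKM at P6. In Atf4 the P9 and P6 pools overlapped, and in Ddit3 they did not. S100a10, the partner of annexin A2, had 40.97 and 44.95 RPKM at P9, against 25.6 and 23.5 RPKM at P6 (log2 change 0.78 ± 0.13 SE, adjusted p = 0.0482). Gltp, the glycolipid transfer protein, had 21.7 and 21.1 RPKM at P9, against 12.9 and 12.2 RPKM at P6 (log2 change 0.73 ± 0.10 SE, adjusted p = 0.0171). Dapl1 had 114 and 102 RPKM at P9, against 64.1 and 41.6 RPKM at P6 (log2 change 1.05 ± 0.17 SE, adjusted p = 0.0468). Its P3 pools had 88.4 and 85.9 RPKM and its E18 pools 152 and 184 RPKM, all above its P6 pools. The P9 pools of S100a10, Gltp and Dapl1 all lay above their P6 pools. Of the 9 risers from Aqp5 to Dapl1 described here, 8 kept the call after median-ratio rescaling, 6 without P9 pool A, 1 (Ppp1r15a) without P9 pool B, 3 without P6 pool A and 0 without P6 pool B, where the adjusted p ran from 0.124 to 0.305.

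The genes that fell at P9 include H19, an imprinted non-coding RNA expressed from the maternal allele that is abundant in fetal tissues. H19 (chr7:142575529-142578143, minus strand) had 5.04 and 7.71 RPKM in the P9 pools, against 18.97 and 18.5 RPKM in the P6 pools. Both P9 pools were well below both P6 pools (log2 change -1.44 ± 0.15 SE, adjusted p = 0.00549), and the P3 pools, at 67.6 and 69.9 RPKM, and the P0 pools, at 179.6 and 212 RPKM, were higher. Among 9 tested imprinted growth genes H19 alone was called (0.162% called lower over all genes). At an unadjusted p below 0.05, 0 were higher and 5 lower (6.39% lower over all genes), with a median log2 change of -0.32. Igf2, the fetal growth factor beside H19, had 4.88 and 6.22 RPKM at P9, against 7.85 and 8.56 RPKM at P6 (log2 change -0.50 ± 0.12 SE, adjusted p = 0.125). Grb10, which dampens insulin and IGF signalling, had 2.49 and 1.75 RPKM at P9, against 4.37 and 4.48 RPKM at P6 (log2 change -0.81 ± 0.17 SE, adjusted p = 0.091). Cdkn1c, the cell cycle inhibitor p57, had 203 and 215 RPKM at P9, against 257 and 243 RPKM at P6 (log2 change -0.25 ± 0.07 SE, adjusted p = 0.158). In these 3 both P9 pools lay below both P6 pools, at changes that missed the threshold. Such an order of pools held for 6 of the 9 genes and for 25.9% of all genes. Igf2r, the receptor that clears IGF2 and is itself imprinted in the mouse, fell: it had 11.99 and 13.1 RPKM in the P9 pools, against 18.98 and 19.1 RPKM in the P6 pools (log2 change -0.57 ± 0.09 SE, adjusted p = 0.0409). H19 kept the call without P9 pool A, P9 pool B and P6 pool A and had an adjusted p of 0.0809 without P6 pool B, whereas Igf2r had 0.0846, 0.118, 0.135 and 0.284 without P9 pool A, P9 pool B, P6 pool A and P6 pool B.

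The most abundant of the 15 named genes that fell was Capn3 (chr2:120456019-120504913, plus strand), a calcium-dependent protease with a lens form in rodents. It had 247 and 248 RPKM in the P9 pools, against 375 and 398 RPKM in the P6 pools. Both pools of an age were close and the ages did not overlap (ratio 0.641, log2 change -0.64 ± 0.08 SE, adjusted p = 0.0159). Ipo5, a nuclear import receptor, had 202 and 184 RPKM at P9, against 256 and 269 RPKM at P6 (log2 change -0.44 ± 0.06 SE, adjusted p = 0.0301). Npl, which breaks down sialic acid, had 142 and 133 RPKM at P9, against 177 and 186 RPKM at P6 (log2 change -0.40 ± 0.06 SE, adjusted p = 0.0396). After median-ratio rescaling the adjusted p was 0.0927 for Ipo5, 0.0915 for Npl, 0.0891 for Ddx26b and 0.0547 for Cabp5, so these 4 were not called on that scale, where their log2 changes were -0.42, -0.38, -0.48 and -0.56 beside -0.44, -0.40, -0.50 and -0.57 without rescaling. Ddx26b had 29.6 and 27.98 RPKM at P9, against 38.9 and 43.4 RPKM at P6. Cabp5, a calcium-binding protein known from retinal bipolar cells, had 9.86 and 9.47 RPKM at P9, against 14.5 and 15.2 RPKM at P6. In both the pools of an age were close and the P9 pools lay below the P6 pools. Ednrb, the endothelin receptor B, had 13.9 and 13.7 RPKM at P9, against 20.5 and 21.8 RPKM at P6 (log2 change -0.58 ± 0.09 SE, adjusted p = 0.0301). Dusp4, a phosphatase that inactivates MAP kinases, had 2.42 and 2.32 RPKM at P9, against 4.48 and 4.25 RPKM at P6 (log2 change -0.67 ± 0.11 SE, adjusted p = 0.0468). Its pools, like those of Ednrb, were close at each age. Without P9 pool A, 6 of these 7 genes kept the call, Dusp4 being lost, and without P9 pool B, P6 pool A or P6 pool B none did (Capn3 0.105, 0.0516 and 0.182).

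The other genes that fell were low in level. Slx1b, a subunit of a DNA-junction endonuclease whose locus overlaps Bola2 on the other strand, had 8.62 and 8.74 RPKM at P9, against 15.6 and 16.1 RPKM at P6. Mad2l1bp, which helps to switch off the spindle checkpoint, had 0.77 and 0.964 RPKM at P9, against 2.79 and 2.23 RPKM at P6. In both genes the 2 ages were well apart for their level. D430041D05Rik had 1.84 and 2.17 RPKM at P9, against 5.26 and 6.23 RPKM at P6 (log2 change -1.17 ± 0.13 SE, adjusted p = 0.00916). C330006K01Rik had 1.16 and 0.943 RPKM at P9, against 3.75 and 3.16 RPKM at P6. Snord8, a small nucleolar RNA, was listed at 0 in both P9 pools and had 0.788 and 1.15 RPKM in the P6 pools; the level of so short an RNA in an mRNA library is uncertain. Of the 15 genes with a symbol that fell, 11 kept the call without P9 pool A, 2 (H19 and D430041D05Rik) without P9 pool B, the same 2 without P6 pool A, and none of the 14 that could be tested without P6 pool B, where the lowest adjusted p was 0.0809 for H19.

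Of 30 cell cycle genes 1 fell (0.162% over all genes) and none rose, while 23 were lower and 0 higher at an unadjusted p below 0.05 (background 6.39%), all 30 fitted changes were negative, and the median log2 change was -0.54, beside -0.03 for all genes. The summed level of the list was 113 and 103 RPKM in P9 pools A and B, against 178 and 156 RPKM in P6 pools A and B. The called member was Kif11, the mitotic kinesin that pushes spindle poles apart, at 2.003 and 1.74 RPKM at P9, against 4.01 and 3.96 RPKM at P6 (log2 change -0.80 ± 0.13 SE, adjusted p = 0.0468). The proliferation marker Mki67 had 3.07 and 2.68 RPKM at P9, against 5.58 and 4.79 RPKM at P6 (log2 change -0.67 ± 0.14 SE, adjusted p = 0.0949). The DNA topoisomerase Top2a had 8.21 and 6.99 RPKM at P9, against 14.2 and 12.2 RPKM at P6 (log2 change -0.72 ± 0.15 SE, adjusted p = 0.0841). All 3 stood lower in both P9 pools. The replicative helicase subunit Mcm3 had 4.65 and 3.89 RPKM at P9, against 8.39 and 7.74 RPKM at P6. Mcm6 had 6.77 and 6.29 RPKM at P9, against 11.5 and 9.51 RPKM at P6. Both P9 pools lay below both P6 pools in 26 of the 30 (background 25.9%). At levels of a few RPKM the log2(RPKM + 1) scale understates these changes. Kif11 kept its call without P9 pool A, and had 0.227, 0.146 and 0.29 without P9 pool B, P6 pool A and P6 pool B. In a library from whole lenses, fewer dividing cells and less RNA of these genes per cell cannot be told apart. Of 8 tested CDK inhibitors and D cyclins none was called (limma; 0 higher and 3 lower at an unadjusted p below 0.05): cyclin D1, Ccnd1, had 32.2 and 32.5 RPKM at P9, against 48.4 and 45.7 RPKM at P6 (log2 change -0.53 ± 0.15 SE, adjusted p = 0.191).

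Epithelial and regulatory lists gave no call by limma. Over all genes, 4.63% were higher and 6.39% lower at an unadjusted p below 0.05. Of 12 epithelium genes 0 were higher and 3 lower at an unadjusted p below 0.05 (median -0.13); Foxe3, the epithelial forkhead factor, had 36.5 and 33.8 RPKM at P9, against 41.4 and 41.1 RPKM at P6. Dkk3, the most abundant of the list, had 1340.0 and 1334 RPKM at P9, against 1418 and 1594 RPKM at P6. Both had P9 pools below their P6 pools. Of 18 lens transcription factors 0 were higher and 2 lower at that level (median -0.08): Pax6 had 96.6 and 90.5 RPKM at P9, against 101 and 86.3 RPKM at P6. Prox1, which drives fiber differentiation, had 73.1 and 74.7 RPKM at P9, against 72.3 and 80.1 RPKM at P6. These key factors of lens fate thus overlapped between the ages. The 10 Notch genes had 0 higher and 3 lower at that level, with Jag1, the ligand displayed by fiber cells, at 31.95 and 30.7 RPKM at P9, against 42.4 and 47.2 RPKM at P6 (log2 change -0.50 ± 0.09 SE, adjusted p = 0.066). Of the 14 BMP and TGF-beta genes 1 was higher and 3 lower, with Id2, a target of BMP signals, at 63.6 and 68.4 RPKM at P9, against 90.8 and 97.7 RPKM at P6 (log2 change -0.51 ± 0.11 SE, adjusted p = 0.0886). Of 12 FGF genes 1 was higher and 0 lower, and Fgfr3, the most abundant receptor of the list, had 83.9 and 84.6 RPKM at P9, against 89.9 and 96.6 RPKM at P6. Jag1 and Id2 were below both P6 pools in both P9 pools.

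Metabolic and housekeeping lists also gave no call by limma. The numbers higher and lower at an unadjusted p below 0.05 were 0 and 1 of 20 cholesterol synthesis genes, 2 and 1 of 18 glycolysis genes, 2 and 2 of 20 autophagy and lysosome genes, 0 and 2 of 15 heat shock genes and 0 and 0 of both 10 immediate early genes and 9 interferon response genes. They were 3 and 5 of 79 ribosomal proteins, 1 and 0 of 76 respiratory chain genes and 0 and 4 of 36 proteasome genes, with medians of -0.03, -0.02 and -0.10. Hsp90ab1, the constitutive HSP90, had 740.0 and 735 RPKM at P9, against 860.2 and 815 RPKM at P6. Over all genes these shares were 4.63% higher and 6.39% lower.

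**Figure D3:**
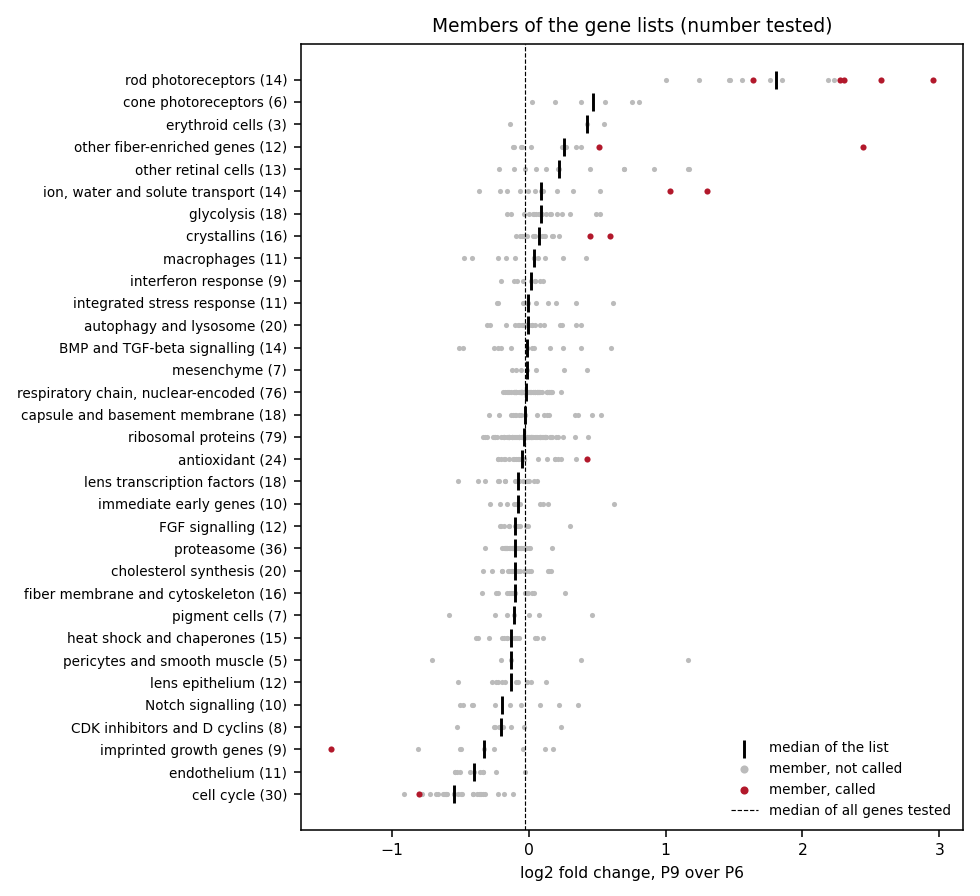
Fitted log2 change (P9 minus P6) of every tested member of each gene list with 3 or more tested members; points are genes, called members are coloured, ticks are list medians and the dashed line is the median over all genes. Cell cycle genes lie to the left of 0, rod genes to the right at a median of 1.81, and most other lists straddle the dashed line.

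Of 14 tested genes of rod photoreceptors 5 rose at P9 (0.19% over all genes) and none fell, and 4 of the 5 are described here. Sag, the rod arrestin, had 41.1 and 101 RPKM at P9, against 12.3 and 8.09 RPKM at P6 (log2 change 2.57 ± 0.38 SE, adjusted p = 0.0304). Gngt1, the gamma subunit of rod transducin, had 15.4 and 27.8 RPKM at P9, against 4.58 and 2.63 RPKM at P6 (log2 change 2.27 ± 0.27 SE, adjusted p = 0.00919). In both, both P9 pools stood above both P6 pools, P9 pool B stood above P9 pool A, and P6 pool A stood above P6 pool B. Pde6b, a catalytic subunit of the rod phosphodiesterase, had 14.8 and 33.8 RPKM at P9, against 4.73 and 2.96 RPKM at P6 (log2 change 2.30 ± 0.31 SE, adjusted p = 0.0196). Rp1, a protein of the outer segment axoneme, had 4.65 and 10.4 RPKM at P9, against 1.82 and 1.35 RPKM at P6 (log2 change 1.64 ± 0.27 SE, adjusted p = 0.0472). Over the list, all 14 tested genes were higher at an unadjusted p below 0.05 (4.63% over all genes), and the median log2 change was 1.81. After median-ratio rescaling 10 of the 14 were called. With P6 and P9 alone in the fit, none of the 5 kept the call. Of the 4, Gngt1 and Pde6b kept the call without P9 pool B and without P6 pool A, and none kept it without P6 pool B. Pde6a and Cnga1 were under the level filter. Pde6a had 0.743 and 1.68 RPKM at P9, against 0.297 and 0.117 RPKM at P6. Cnga1 had 0.336 and 1.39 RPKM at P9, against 0.114 and 0.166 RPKM at P6.

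The rod genes also varied between pools of the same age. In all 15 of the list that are shown, P9 pool B was above P9 pool A, by 1.80 to 4.13 times (median 2.28), and in 14 of the 15 P6 pool A was above P6 pool B (median 1.52 times). Over all genes tested the corresponding P9 ratio had a median of 1.03 (on RPKM + 1), and 4.11% of genes had P9 pool B at least 1.5 times above P9 pool A. The summed level of the whole list of 16 was 252 and 573 RPKM in P9 pools A and B, against 114 and 74.96 RPKM in P6 pools A and B. The median log2 change was 1.34 without P9 pool B and 2.36 without P9 pool A. The 9 tested members besides the 5 were not called. Crx, the transcription factor of photoreceptors, had 17.04 and 41.3 RPKM at P9, against 15.3 and 10.6 RPKM at P6 (log2 change 1.00 ± 0.34 SE, adjusted p = 0.299). Nrl, the factor that sets rod fate, had 18.8 and 42.7 RPKM at P9, against 11.8 and 7.78 RPKM at P6 (log2 change 1.47 ± 0.40 SE, adjusted p = 0.177). Pdc, phosducin, had 52.6 and 108 RPKM at P9, against 24.6 and 16.5 RPKM at P6 (log2 change 1.85 ± 0.35 SE, adjusted p = 0.0713). P9 pool A of Crx, at 17.04 RPKM, was close to P6 pool A, whereas P9 pool A of Sag was several times above both P6 pools.

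**Figure D4:**
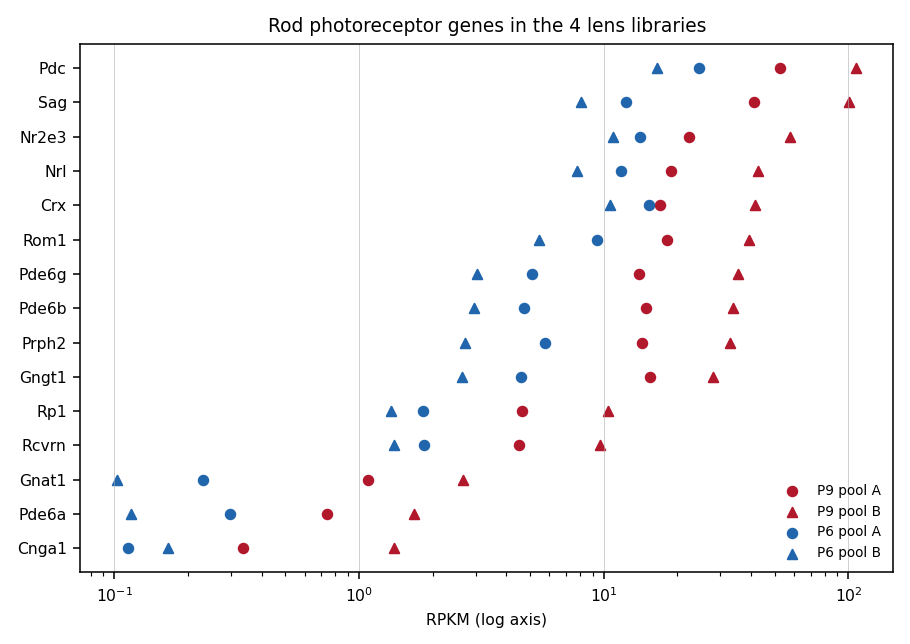
Levels of 15 rod genes (RPKM, logarithmic axis) in P9 pools A and B and P6 pools A and B, 1 point per library. P9 pool B is the highest library for all 15 genes, at 101 RPKM for Sag, and P6 pool A is above P6 pool B for 14 of them.

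Further called genes known from the retina, or in the case of Ckmt1 from brain and retina, were Slc17a7, Grk1, Guca1a and Ckmt1. Slc17a7, the vesicular glutamate transporter of photoreceptor and bipolar synapses, had 3.92 and 9.38 RPKM at P9, against 1.05 and 0.459 RPKM at P6 (log2 change 2.05 ± 0.32 SE, adjusted p = 0.0396). Grk1, a photoreceptor kinase, had 1.54 and 3.095 RPKM at P9, against 0.493 and 0.133 RPKM at P6 (log2 change 1.31 ± 0.22 SE, adjusted p = 0.0495). In both P9 pool B was the highest library and the ages did not overlap. Guca1a, the guanylate cyclase activator of photoreceptors, had 1.62 and 1.29 RPKM at P9, against 0.268 and 0.13 RPKM at P6 (log2 change 1.03 ± 0.17 SE, adjusted p = 0.0447). Among the libraries fitted, Grk1 and Guca1a reached 1 RPKM in the P9 pools only. They passed the level filter through the age at which they are high and were not tested without either P9 pool. Their calls therefore depend on that filter and are weaker than the others. Ckmt1, a mitochondrial creatine kinase, had 2.96 and 4.2 RPKM at P9, against 0.94 and 0.355 RPKM at P6 (log2 change 1.49 ± 0.23 SE, adjusted p = 0.0396). P9 pool B was the higher P9 pool in 7 of the 8 called rod and retinal genes described, Guca1a being the exception, whereas among the 14 other risers described it was the higher in 1, S100a10. All 8 kept the call after median-ratio rescaling, and 6 of 6 tested kept it without P9 pool A. Without P9 pool B 2 of 6 tested (Pde6b and Gngt1) kept it, without P6 pool A the same 2, and without P6 pool B none, the adjusted p running from 0.124 to 0.336.

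Markers of other retinal cells differed between the ages by less. Over all genes, 4.63% were higher and 6.39% lower at an unadjusted p below 0.05 by limma. Of 6 tested cone genes none was called (limma; 3 higher and 0 lower at an unadjusted p below 0.05, median 0.47), with a summed level of 18.5 and 42.9 RPKM in P9 pools A and B, against 24.4 and 22.3 RPKM in P6 pools A and B. Of 13 tested genes of other retinal cells none was called (6 higher and 0 lower, median 0.22), with a summed level of 83.7 and 143 RPKM in P9 pools A and B, against 75.6 and 55.3 RPKM in P6 pools A and B. In both lists, as in the rods, P9 pool B was the highest library and P9 pool A lay nearer to the P6 pools. Rlbp1, of Muller glia, had 6.398 and 17.4 RPKM at P9, against 6.36 and 4.18 RPKM at P6. Summed over their lists, rod and other retinal transcripts were thus present in all 4 lens libraries and highest in P9 pool B. Single genes could differ, as Guca1a was highest in P9 pool A and Cabp5 was higher in both P6 pools. The part of retinal material in the rises of the rod and retinal genes was not tested. Lgsn, Crybb2, Crygs and Fabp5 were higher in P9 pool A than in P9 pool B. This was not particular to called genes: P9 pool B was the higher in 3 of 16 crystallins and in 1 of 12 further fiber-enriched genes. What lies behind these differences between the P9 pools was not tested.

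Of 11 endothelial genes none was called (limma). At an unadjusted p below 0.05, 0 were higher and 4 lower (6.39% over all genes), both P9 pools lay below both P6 pools in 10 (25.9% over all genes), and the median log2 change was -0.40. Their summed level was 25.4 and 31.03 RPKM in P9 pools A and B, against 39.1 and 42.04 RPKM in P6 pools A and B. Cldn5, a tight junction protein of endothelium, had 6.38 and 7.89 RPKM at P9, against 9.01 and 9.42 RPKM at P6. Cdh5, VE-cadherin, had 2.85 and 3.76 RPKM at P9, against 4.57 and 4.695 RPKM at P6. Of 5 tested pericyte and smooth muscle genes none was called (1 higher and 1 lower), with values on both sides: Rgs5, of pericytes, had 16.2 and 16.3 RPKM at P9, against 28.8 and 25.6 RPKM at P6 (log2 change -0.71 ± 0.13 SE, adjusted p = 0.066). Acta2, smooth muscle actin, had 45.6 and 42.9 RPKM at P9, against 20.5 and 18.003 RPKM at P6 (log2 change 1.16 ± 0.22 SE, adjusted p = 0.0747).

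By limma no gene was called in the lists of macrophages, blood, pigment cells, mesenchyme, cornea and muscle. Summed over their lists, 11 macrophage genes had 6.69 and 12.5 RPKM in P9 pools A and B, against 14.9 and 5.96 RPKM in P6 pools A and B. The 3 tested erythroid genes gave no call, and their list summed to 83.4 and 133 RPKM in P9 pools A and B, against 80.9 and 67.5 RPKM in P6 pools A and B. Krt14, of surface epithelium, was listed at 0 in all 4 libraries, and Krt12, the corneal keratin, had 0.059 and 0.079 RPKM at P9, against 0.273 and 0.163 RPKM at P6. Of 7 pigment cell genes 1 was higher and 2 lower at an unadjusted p below 0.05, and of 7 mesenchyme genes 1 was higher, none being called by limma. Over all genes these shares were 4.63% higher and 6.39% lower. The 1 tested gene each of the corneal and skeletal muscle lists was not called.

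The step between P6 and P9 was set beside the one before it. Between P3 and P6, in the same fit, 205 genes (1.44%) were called higher and 2020 (14.2%) lower at P6, and the median size of the change was 0.23, against 0.12 between P6 and P9. That earlier step carries a shift of all genes, with a median of -0.21 that came to 0.02 after median-ratio rescaling. On the rescaled values, an alternative added after the data were seen, 624 genes were called higher and 540 lower at P6 than at P3, and the median size was 0.16, against 0.12 between P6 and P9. A log2 change of 1 or more was reached between P6 and P9 by 94 genes upward and 25 downward, and between P3 and P6, before rescaling, by 39 upward and 315 downward. The difference of the 2 steps, (P9 minus P6) minus (P6 minus P3), was called for 128 genes (0.901%), 108 more positive (0.76%) and 20 more negative (0.141%) between P6 and P9. After rescaling the split was 73 and 37, and after quantile normalization 63 and 34. P6 enters both steps, so single libraries weigh on it. Without P6 pool B the difference was called for 1 and 2 genes, and without P6 pool A for 123 and 12. The counts were 56 and 10 without P9 pool A, 22 and 11 without P9 pool B, 30 and 11 without P3 pool A and 10 and 11 without P3 pool B.

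Among the genes with close pools that differed most between the steps, Nupr1, a small stress-induced nuclear protein, was the most abundant. It had 1792 and 1634 RPKM at P9, against 1543 and 1552 RPKM at P6, and 211 and 203 RPKM at P3. The P0 pools had 1129.8 and 1076 RPKM, so P3 stood below the other postnatal ages (difference of steps -2.75 ± 0.11 SE, adjusted p = 6.3e-06). Fam131b had 3.597 and 3.83 RPKM at P9, against 5.104 and 5.49 RPKM at P6, and 0.254 and 0.374 RPKM at P3 (-2.68 ± 0.29 SE, adjusted p = 0.00789). Snrpf, a core protein of spliceosomal particles, had 9.19 and 11.9 RPKM at P9, against 10.8 and 12.8 RPKM at P6, 3.35 and 4.63 RPKM at P3 and 13.7 and 13.2 RPKM at P0. 1700021K19Rik had 20.7 and 18.8 RPKM at P9, against 19.2 and 19.8 RPKM at P6, 7.32 and 8.18 RPKM at P3 and 8.69 and 6.72 RPKM at P0. In both the P9 and P6 pools were close and the P3 pools stood below them. Slx1b, which fell between P6 and P9, had 8.14 and 9.997 RPKM at P3. Without each P3, P6 and P9 library in turn the difference stayed called for Nupr1 in all 6 fits, for Fam131b in 5, for Slx1b in 1 and for Snrpf and 1700021K19Rik in 0. Fam131b was lost without P6 pool B, at an adjusted p of 0.121.

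The difference of steps was positive in the other 5 genes of the rule. Dct, a melanin enzyme of pigment cells, had 4.75 and 5.39 RPKM at P9, against 3.38 and 3.398 RPKM at P6, and 14.3 and 18.8 RPKM at P3 (2.45 ± 0.25 SE, adjusted p = 0.00632). Slc4a5, a sodium bicarbonate cotransporter, had 3.11 and 3.55 RPKM at P9, against 1.87 and 1.78 RPKM at P6, and 9.41 and 7.59 RPKM at P3 (2.36 ± 0.27 SE, adjusted p = 0.00824). In both, the P9 pools lay a little above the P6 pools and well below the P3 pools. Their P0 pools had 18.9 and 23.8 RPKM for Dct and 3.86 and 5.12 RPKM for Slc4a5. Serpina3h, one of a cluster of near-identical protease inhibitor genes, was listed at 0 at P9, P6 and P0 and had 15.7 and 14.4 RPKM at P3. It passed the level filter through the P3 pools only and was not tested without either of them. The left-out fits that did test Serpina3h kept both P3 pools, so they are no check on its call. Hbb-b1, an adult beta-globin whose reads its copies can share, had 28.8 and 42.02 RPKM at P9, against 29.7 and 22.2 RPKM at P6, 242 and 177 RPKM at P3 and 24.7 and 50.8 RPKM at P0 (3.39 ± 0.52 SE, adjusted p = 0.027). Gm7120 had 0.916 and 0.737 RPKM at P0 and 6.11 and 7.24 RPKM at P3. In these 3 the P3 pools stood above those of P0, P6 and P9. With 1 library left out, Dct and Slc4a5 stayed called in 5 of 6 fits, Hbb-b1 in 2 of 6 and Serpina3h in the 4 fits in which it was tested. Without P6 pool B the adjusted p was 0.113 for Dct, 0.121 for Slc4a5 and 0.323 for Hbb-b1. Among the risers described, the difference was called too for Fmod (1.85 ± 0.27 SE, adjusted p = 0.021), Ltbp2 (1.53 ± 0.27 SE, adjusted p = 0.0412), Dapl1 (1.79 ± 0.30 SE, adjusted p = 0.0363) and Gltp (0.92 ± 0.17 SE, adjusted p = 0.044). In each of these genes both P3 pools lay above both P6 pools. For Lgsn the difference of steps was 1.07 ± 0.38 SE, adjusted p = 0.254, and for Crybb2 -0.40 ± 0.09 SE, adjusted p = 0.0906, so neither gene's change between P6 and P9 was shown to differ from its change between P3 and P6.

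**Figure D5:**
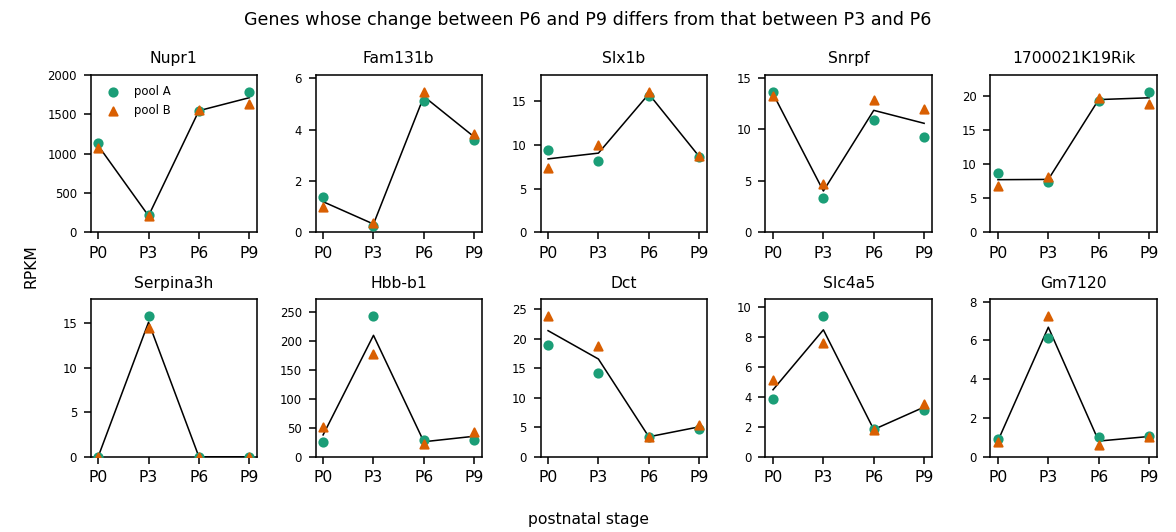
RPKM (vertical axes, each from 0) by pool at P0, P3, P6 and P9 for the 10 genes named by the rule for the difference of steps; points are pools and lines join their means. Nupr1 is lower at P3 than at P0, P6 and P9, and Serpina3h is listed at 0 in all libraries shown but those of P3.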

How the data were processed

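The authors deposited 1 table of values per library, which carries no unit. The deposited mRNA values were read as RPKM from the values themselves. Among values below 0.5 of genes with one transcript length above 1500 bases, 69.17% to 70.41% per library lay within 0.1 read of a whole read. The depth was picked on these same values to bring them nearest to whole reads. Chance gives 20% for a depth fixed beforehand, so 20% is not the chance level of this procedure. As the values are not counts, the number of reads was not recovered and no count-based test was run. The submitters' processing notes name SAMtools 0.1.18, Bowtie 0.12.8 and the build GRCm38/mm10. What each did, and how shared reads were counted, the sources used here do not give. RPKM is relative to a library's total, so a rise of crystallins lowers all other values.

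Genes with at least 1 RPKM in at least 2 of 10 libraries (E18, P0, P3, P6, P9) were fitted as log2(RPKM + 1) in limma 3.58.1 (R 4.3.3) with stage as factor, an intensity trend, 5 residual degrees of freedom and Benjamini-Hochberg adjustment over all 14202 genes, so fold changes of low genes are understated. E15 was left out because its 2 pools differ more (median 0.35 on this scale, 0.11 to 0.15 at other stages) and was put back as an alternative. Pools are separate animals, so p-values measure the spread between pools, taken as a single variance per gene over these ages. Rod genes were near 0 at E18 and P0: Sag had 0.145 and 0.291 RPKM at E18 and 0.075 and 0.262 RPKM at P0. Their SE and adjusted p can therefore understate the spread between the P6 and P9 pools. With P6 and P9 alone in the fit, the genes with a symbol that kept the call were 4931428L18Rik, Capn3, Crybb2 and Lgsn, and no rod or retinal gene did. A gene is called at an adjusted p below 0.05, and lists are described by counts without a set test.

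The comparison and the 35 gene lists were chosen with earlier results of these data known. Of the 40 called genes with a symbol 37 are named, and some genes are not reported here. Also named are the crystallins, the most abundant member of a list without a call, and the 5 largest differences of steps each way. These were taken among called genes with a mean of at least 5 RPKM at P3, P6 or P9. Their pools had to differ by less than 1.5 times, as a ratio of RPKM + 1, at each of these ages. Other uncalled members were picked as examples after their values were seen. Positions are from GENCODE on GRCm38. The procedure was run on simulated data with normal noise and a single spread per gene over all ages. That run could not show the error for genes whose spread differs between ages, such as the rod genes. Tables were handled with Python 3.11.15, pandas 2.3.3, numpy 2.4.6 and scipy 1.17.1, and drawn with matplotlib 3.10.9. Alternatives were other scalings, pseudocount, filters, sets of stages, no trend, the pool letter as a block and each left-out library. The small-RNA libraries were not used here.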

Additional observations from a re-analysis of the deposited data

Results flagged for a closer look

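The change between P6 and P9 differed from the change between P3 and P6, by the test of that difference in the limma fit, most in the 10 genes below. They are the 5 largest each way among called genes whose pools differed by less than 1.5 times on RPKM + 1 at P3, P6 and P9. Values are differences on the log2(RPKM + 1) scale, and P6 enters both steps. More negative were Nupr1 (-2.749), Fam131b (-2.678), Slx1b (-1.551), Snrpf (-1.525) and 1700021K19Rik (-1.213). More positive were Serpina3h (4.006), Hbb-b1 (3.385), Dct (2.454), Slc4a5 (2.356) and Gm7120 (2.275), the last a low transcript with 1.08 and 1.02 RPKM at P9, against 1.005 and 0.615 RPKM at P6, 6.11 and 7.24 RPKM at P3 and 0.916 and 0.737 RPKM at P0. With 2 pools per age no library could be tested as standing apart within its group.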

How the results depend on the processing

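Direction was the same under each alternative in which a gene called here was tested. The count higher and lower at P9 was 53 and 23 after median-ratio rescaling, 56 and 29 after quantile normalization, 13 and 26 with a pseudocount of 0.1, 17 and 11 with no low-value filter, 20 and 14 at 5 RPKM or more, 11 and 5 with E15 included, 17 and 10 with postnatal stages only, 5 and 2 with P6 and P9 only and 13 and 14 without the trend. Leaving out 1 library gave 0 to 117 higher and 2 to 38 lower. Of the 50 calls, 44 were also made after rescaling, 16 with E15 included, 6 with P6 and P9 only, 38 without P9 pool A, 13 without P9 pool B, 19 without P6 pool A and 2 without P6 pool B. The cause of these losses was not tested, beyond the fewer libraries in the fits that drop some; a lone pool is assumed to vary like the others.

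The difference of steps was more positive and more negative for 73 and 37 genes after rescaling, 63 and 34 after quantile normalization, 119 and 18 with a pseudocount of 0.1, 11 and 9 with no filter, 123 and 12 at 5 RPKM or more, 2 and 2 with E15 included, 51 and 12 with postnatal stages only and 52 and 14 without the trend. Leaving out 1 library gave 1 to 123 and 2 to 12. Pool letters did not pair the libraries: A minus B differences correlated across genes at -0.07 between P6 and P9, and at -0.04 to 0.21 between other stages. With the letter as a replicate block 22 genes were higher and 18 lower (35 of the 50 calls), and the difference of steps gave 42 and 12. For single genes taken by the naming rule, 326 results under alternatives kept the call and 297 lost it, and none reversed. Depth limits genes below 1 RPKM, which rest on fewer than 40.7 to 55 reads for 2 kb.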
